A study of Mus musculus with 10 samples.

Results

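The genes described here are the fibroblast growth factor (FGF) ligands Fgf1 and Fgf2, the 4 FGF receptors Fgfr1, Fgfr2, Fgfr3 and Fgfr4, and the feedback inhibitors Spry1, Spry2, Spry4 and Dusp6. They were chosen by name, with earlier results of these data known, and each of the 10 symbols matched 1 of the 29527 genes in the table. All 10 had a mean level high enough to be tested and were among the 17268 genes tested. The RNA came from the dissected intermediate lobe (IL) of the mouse pituitary, the thin lobe made mainly of melanotrophs, which produce pro-opiomelanocortin, lined by Sox2-expressing stem cells. Whole IL from mice of 2 to 3 months were compared between 4 WT, 3 p27-/- and 3 p27-/-;Sox2+/- samples. In the p27-/- mice the gene Cdkn1b, which encodes the cyclin-dependent kinase inhibitor p27, is deleted in every cell (allele Cdkn1b tm1Mf), and in the p27-/-;Sox2+/- mice 1 copy of the stem cell factor Sox2 is missing as well. No group carried the Sox2 deletion alone, so what it does in the presence of p27 was not measured here. The mice were of both sexes and of mixed background, littermates or animals of comparable background, and the labels used here do not give the sex of a sample.

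FGFs are secreted proteins that bind a receptor tyrosine kinase together with heparan sulfate chains on the cell surface. The activated receptor signals through adaptor proteins to the RAS, RAF and ERK kinases. Transcripts of the Sprouty genes and of Dusp6 are known to be induced by ERK, and their proteins dampen the same pathway: Sproutys act between receptor and RAF, and DUSP6 removes phosphate from ERK. In the pituitary, FGF10 signalling to FGFR2 is known to be needed for the gland to form, and FGF2 is a mitogen first purified from pituitary and brain. FGF1 and FGF2 both lack a classical secretion signal.

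Cdkn1b was measured first, since it is the targeted gene. Its log2 values were 8.54, 8.85, 8.39 and 8.66 in WT, 8.27, 8.04 and 8.22 in p27-/-, and 8.10, 7.73 and 7.83 in p27-/-;Sox2+/-. Both mutants were below all WT samples, but their means were only 0.43 and 0.72 lower on the log2 scale, so reads from the locus were still counted in the mutants. Sox2 read 7.35, 7.39, 7.75 and 7.34 in WT, 7.33, 7.45 and 7.08 in p27-/-, and 7.07, 6.88 and 7.04 in p27-/-;Sox2+/-, where it was lower than in every other sample (0.46 below WT, limma adjusted p = 0.0811). Melanotroph markers dominated every sample, with summed linear levels from 282699 to 553082, against 570 to 1008 for macrophage and microglial markers. Anterior lobe markers varied most, up to 213883 in WT replicate 2. Xist, transcribed from the inactive X chromosome, was low (8.78 to 9.29) in 1 sample of each mutant (p27-/- replicate 2 and p27-/-;Sox2+/- replicate 1) and in 2 WT samples (replicates 3 and 4), and high (14.32 to 15.01) in the other 6, with the Y-linked gene Ddx3y showing the opposite pattern.

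Among the FGF genes, the ligands Fgf1 and Fgf2 and the receptor Fgfr1 were lower in p27-/- than in WT IL, while Fgfr2, Fgfr3, Fgfr4 and the 4 feedback genes did not pass the test. Fgf1 and Fgfr1 were also lower in p27-/-;Sox2+/- IL than in WT. Thus 3 of the 10 genes passed the limma test at an adjusted p of 0.05 in p27-/- against WT, all lower, where 7.78% of all tested genes passed, 4.62% as lower and 3.16% as higher. In p27-/-;Sox2+/- against WT, 2 of 10 passed, both lower, where 2.71% of all tested genes passed and 1.88% passed as lower. Between the mutants, limma called 0 of the 10, where 0.145% of all tested genes were called and 0.0637% called as lower. An unadjusted p below 0.05 was found for 2 of the 10, against 6.65% of all tested genes. The 10 genes were chosen with earlier results of these data known, so these counts are not independent evidence. In bulk tissue, fewer cells that express a gene and less of its RNA per cell cannot be told apart.

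**Figure D1:**
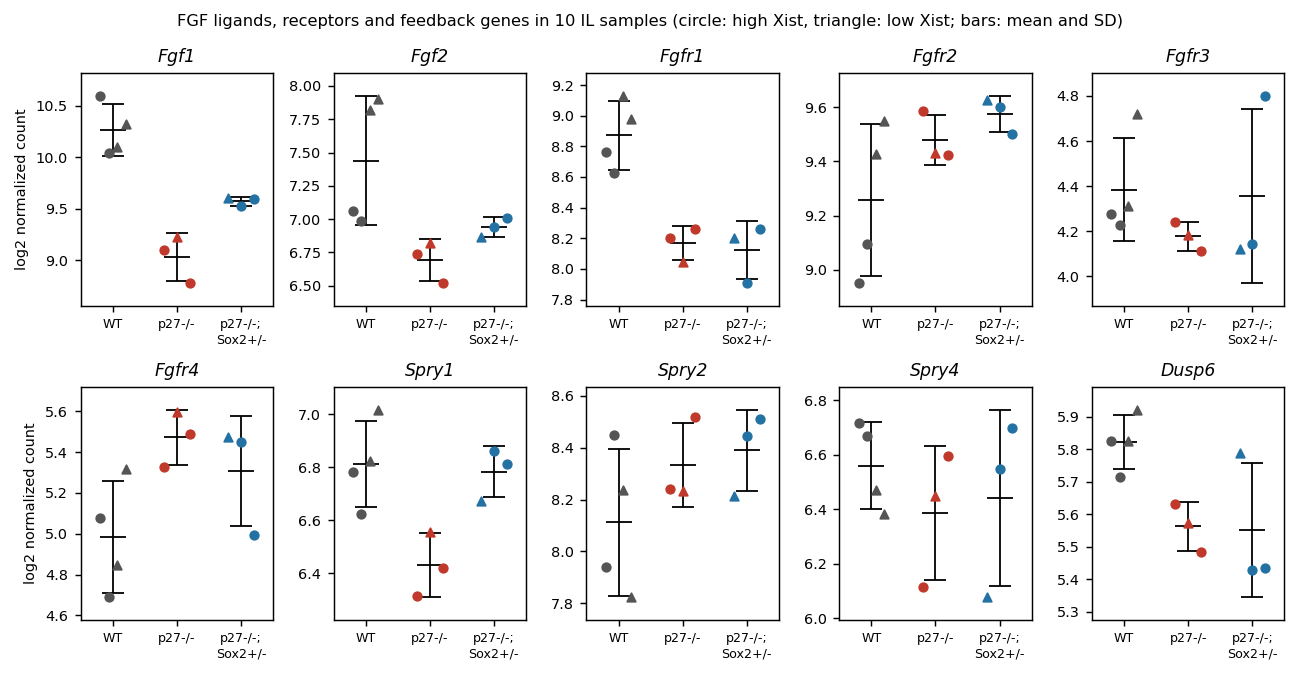
Log2 normalized count (vertical axis, its own range for each gene) of the 10 FGF genes in each IL sample by genotype, with the mean and SD of each group; triangles are the 4 samples with low Xist. Fgf1 and Fgfr1 of both mutants lie below all WT samples, and the 2 highest Fgf2 values (7.82 and 7.90) belong to the WT samples with low Xist.

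Fgf1 encodes a ligand that can activate all FGF receptors. Its log2 values were 10.60, 10.04, 10.10 and 10.32 in WT, 9.10, 9.22 and 8.78 in p27-/-, and 9.60, 9.52 and 9.59 in p27-/-;Sox2+/-. The 3 genotypes did not overlap: every p27-/-;Sox2+/- sample lay above every p27-/- sample and below every WT sample. Fgf1 fell by 1.23 on the log2 scale in p27-/- (SE 0.13, adjusted p = 0.000348), a level 2.35-fold below WT. It fell by 0.69 in p27-/-;Sox2+/- (SE 0.13, adjusted p = 0.0154), 1.61-fold below WT. The difference between the mutants was 0.54 (SE 0.14, 95% confidence interval 0.24 to 0.84), with an unadjusted p of 0.00193 and an adjusted p of 0.247, so it did not pass the test over all genes. The call in p27-/- held in all 21 other settings, with a log2 difference between -1.38 and -1.10. That in p27-/-;Sox2+/- was lost in 4 of 21. These were the fits without p27-/-;Sox2+/- replicate 1 (-0.70, adjusted p = 0.0524) or replicate 2 (-0.67, adjusted p = 0.0838). The others were the level of posterior lobe markers as a covariate (-0.65, adjusted p = 0.0641) and the samples of high Xist alone (-0.76, adjusted p = 0.177).

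Per kb of exon, Fgf1 was also the most abundant of the 7 FGF genes for which the gene models could be matched in length. On the linear scale its level was 267.5 ± 48.4 per kb in WT (SD, n = 4), 114 ± 17.6 in p27-/- (n = 3) and 164 ± 4.78 in p27-/-;Sox2+/- (n = 3). Spry2 came next in WT with 135 ± 26.7, followed by Spry1 with 38.9 ± 4.39. Spry4 (20.7 ± 2.28) and Dusp6 (18.8 to 21.7) had overlapping ranges, and Fgfr4 (9.02 ± 1.74) and Fgfr3 (3.07 ± 0.52) were the lowest. In p27-/- IL the order of the first 2 was the other way round, with Spry2 at 155 ± 17.9 per kb and no overlap with Fgf1, and in p27-/-;Sox2+/- IL the ranges of Fgf1 (158 to 167) and Spry2 (142 to 175) overlapped. Fgf2, Fgfr1 and Fgfr2 have no value on this scale because their gene models differed in length between annotations.

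Fgf2 encodes the basic FGF, a ligand with mitogenic activity on many cell types. Its log2 values were 7.06, 6.98, 7.82 and 7.90 in WT, 6.74, 6.82 and 6.52 in p27-/-, and 6.87, 6.94 and 7.01 in p27-/-;Sox2+/-. All p27-/- samples were below all WT samples and below all p27-/-;Sox2+/- samples, while p27-/-;Sox2+/- samples overlapped the 2 lower WT samples. Fgf2 fell by 0.75 on the log2 scale in p27-/- (SE 0.20, adjusted p = 0.0394), 1.68-fold below WT. Fgf2 is among the genes that the study itself singled out on these samples, so its direction is not independent evidence. The difference from WT in p27-/-;Sox2+/- was -0.50 (SE 0.20, adjusted p = 0.207), and that between the mutants was 0.25 (95% confidence interval -0.22 to 0.71, adjusted p = 0.977).

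The call for Fgf2 rested on a wide spread within WT. WT replicates 3 and 4, the WT samples with low Xist, were far above WT replicates 1 and 2. Among the 6 samples with high Xist the difference in p27-/- was -0.39 (adjusted p = 0.301, 2 samples per genotype), and that in p27-/-;Sox2+/- was -0.04 (adjusted p = 0.944). The call was lost in 7 of the 10 fits without 1 sample, those without WT replicate 3 or 4, any p27-/- replicate, or p27-/-;Sox2+/- replicate 1 or 2, where the value lay between -0.81 and -0.59 and the adjusted p between 0.0531 and 0.154. The same pair of WT samples had the highest summed levels of posterior lobe markers in WT, 6510 and 8075, against 5657 and 3049 in WT replicates 1 and 2. The summed level of these 12 markers ranged from 3049 to 8075 in WT, from 3366 to 4079 in p27-/- and from 2991 to 7187 in p27-/-;Sox2+/-. In p27-/- 1 of the 12 passed as lower, where 4.62% of all tested genes did. With the posterior lobe marker level as a covariate the difference of Fgf2 was -0.53 (adjusted p = 0.185). In that fit 154 of all tested genes were called higher and 262 lower in p27-/- against WT, against 545 and 798 without the covariate. In WT, low Xist and the highest posterior lobe levels fell on the same 2 samples, so there they cannot be told apart. In p27-/-;Sox2+/- they did not coincide. Replicate 3 of that genotype, of high Xist, had a posterior lobe level of 7187 and Fgf2 at 7.01. Its replicate 1, of low Xist, had a level of 2991 and Fgf2 at 6.87. Whether sex or carried-over posterior lobe tissue plays a part in the result was not tested further.

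**Figure D2:**
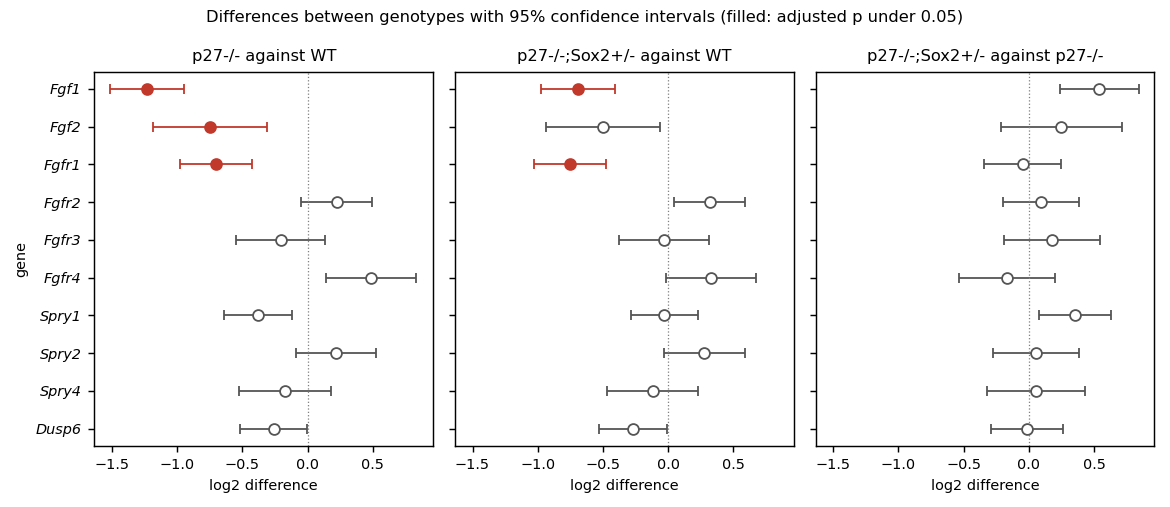
Log2 difference (horizontal axis) of each FGF gene in the 3 comparisons with its 95% confidence interval; filled points passed an adjusted p of 0.05 over all genes tested. Fgf1, Fgf2 and Fgfr1 passed in p27-/- against WT, Fgf1 and Fgfr1 in p27-/-;Sox2+/- against WT, and no gene passed between the mutants.

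The genes whose values over the 10 samples were most like those of Fgf2 were, in order, Lrp4 (root mean square difference of centred log2 values 0.142), Kcna2 (0.143), Olfml3 (0.156), ENSMUSG00000108238 (0.157) and Pdpn (0.161), among 17267 genes. By the same measure Fgf2 deviated from its own mean by 0.424, and the median gene differed from it by 0.453. Lrp4 is a receptor of the LDL receptor family, Kcna2 a potassium channel gene and Pdpn a membrane glycoprotein. The genes were picked for their likeness to Fgf2 over these samples, so a shared peak or a shared difference between genotypes was fixed by the choice and was not tested.

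**Figure D3:**
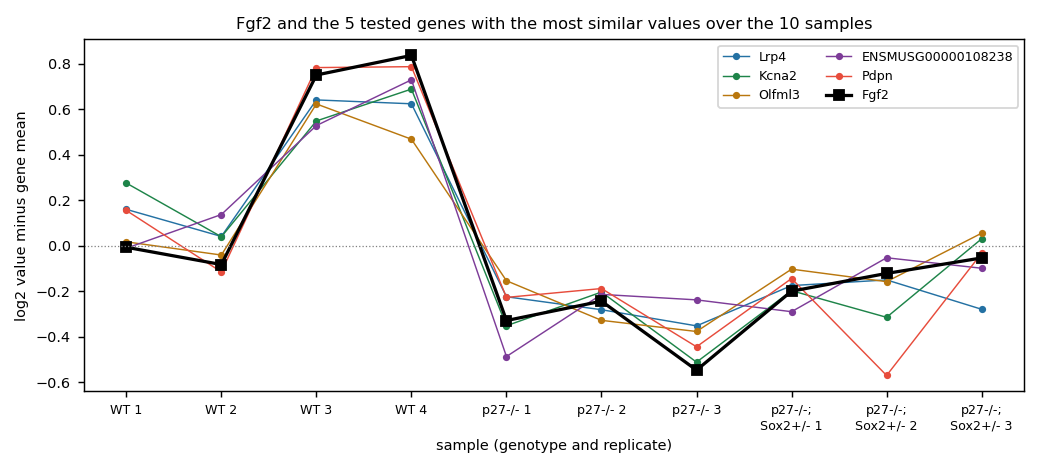
Log2 value minus the mean of each gene (vertical axis) in the 10 IL samples (horizontal axis) for Fgf2 and the 5 genes with the smallest root mean square difference from it. The 5 genes were chosen for this likeness, so the peak in WT replicates 3 and 4 and the values below the mean in p27-/- that they share with Fgf2 follow from the choice.

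Fgfr1 encodes the receptor through which FGF2 signals in many tissues. It read 8.76, 8.62, 9.13 and 8.98 in WT, 8.20, 8.04 and 8.26 in p27-/-, and 8.20, 7.91 and 8.26 in p27-/-;Sox2+/-. Both mutants lay below all WT samples and overlapped each other. Fgfr1 fell by 0.70 in p27-/- (SE 0.13, adjusted p = 0.0064) and by 0.75 in p27-/-;Sox2+/- (SE 0.13, adjusted p = 0.00873), 1.63-fold and 1.68-fold below WT. The difference between the mutants was -0.05, with a 95% confidence interval of -0.34 to 0.25. Within the samples of high Xist the differences from WT were -0.46 (adjusted p = 0.229) and -0.61 (adjusted p = 0.174). Leaving out p27-/-;Sox2+/- replicate 2 gave -0.64 against WT (adjusted p = 0.0661).

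Fgfr2 encodes the receptor for FGF10 and FGF7 in epithelia. On the log2 scale it read 8.95, 9.10, 9.43 and 9.55 in WT, 9.58, 9.43 and 9.42 in p27-/-, and 9.63, 9.60 and 9.50 in p27-/-;Sox2+/-. The mutants resembled the 2 higher WT samples, and the groups overlapped. The differences from WT were 0.22 (SE 0.13, adjusted p = 0.304) and 0.32 (SE 0.13, adjusted p = 0.198), opposite in sign to those of Fgfr1.

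Fgfr4 read 5.08, 4.69, 4.85 and 5.32 in WT, 5.33, 5.60 and 5.49 in p27-/-, and 5.48, 5.45 and 5.0 in p27-/-;Sox2+/-. Every p27-/- sample was above every WT sample, by a narrow margin over WT replicate 4, while p27-/-;Sox2+/- replicate 3 fell within the WT range. The difference in p27-/- was 0.49 (SE 0.16) with an adjusted p of 0.0791, and it passed the test without WT replicate 4 (0.60, adjusted p = 0.0497). Fgfr3, at 4.11 to 4.80 in all samples, was the lowest of the receptors on the log2 scale, close to the minimum mean for testing of 3.32. Its groups overlapped in every comparison, with differences of -0.21 and -0.03 from WT (adjusted p = 0.465 and 0.947).

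None of the 4 feedback genes passed the test in any comparison over all 10 samples. Spry1 read 6.78, 6.63, 6.82 and 7.02 in WT, 6.31, 6.55 and 6.42 in p27-/-, and 6.67, 6.86 and 6.81 in p27-/-;Sox2+/-. The p27-/- samples were below all others, and the p27-/-;Sox2+/- samples lay within the WT range. The difference in p27-/- was -0.38 (SE 0.12, adjusted p = 0.0699; -0.44 and adjusted p = 0.0435 without WT replicate 2), while that in p27-/-;Sox2+/- was -0.03 (adjusted p = 0.929). Between the mutants it was 0.35 (95% confidence interval 0.07 to 0.63, unadjusted p = 0.0165, adjusted p = 0.554).

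Dusp6, the ERK phosphatase, read 5.83, 5.72, 5.83 and 5.92 in WT, 5.63, 5.57 and 5.48 in p27-/-, and 5.79, 5.43 and 5.44 in p27-/-;Sox2+/-. All p27-/- samples were below all WT samples, and among p27-/-;Sox2+/- samples replicate 1 reached the WT range. The differences from WT were -0.26 (adjusted p = 0.206) and -0.27 (adjusted p = 0.254). Spry2 had log2 values of 7.82 to 8.45 in WT, 8.23 to 8.52 in p27-/- and 8.21 to 8.51 in p27-/-;Sox2+/-, with differences of 0.22 and 0.28 from WT (adjusted p = 0.38 and 0.339). Spry4 had log2 values of 6.38 to 6.72 in WT, 6.11 to 6.60 in p27-/- and 6.08 to 6.70 in p27-/-;Sox2+/-, with differences of -0.17 and -0.12 (adjusted p = 0.554 and 0.755). For both genes the groups overlapped in every comparison.

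Counted by overlap alone, 5 of the 10 FGF genes were lower and 1 was higher in every p27-/- sample than in every WT sample, where 20.6% of all tested genes did not overlap, 10.3% lower and 10.2% higher. An unadjusted p below 0.05 was found for 6 of the 10 in this comparison, against 24.1% of all tested genes. Fgf1 and Fgfr1, 2 of 10, did not overlap between p27-/-;Sox2+/- and WT, against 15.0% of all tested genes. Between the mutants, 3 of 10 (Fgf1, Fgf2 and Spry1) were higher in every p27-/-;Sox2+/- sample and 0 were lower, against 15.3% of all tested genes not overlapping and 7.51% higher. The median log2 difference of the 10 genes was -0.23, -0.07 and 0.08 in the 3 comparisons, where the median of all tested genes was 0.01, 0.01 and -0.00. The first 2 comparisons share the WT samples, and the first and last share the p27-/- samples. Two-sided exact permutation tests over samples cannot go below 0.0571 for 4 against 3 samples or 0.1 for 3 against 3, and Fgf1, Fgf2, Fgfr1, Fgfr4, Spry1 and Dusp6 reached that limit in p27-/- against WT.

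Markers of other cells also differed between the genotypes. The 8 stem cell markers summed to linear levels of 5794 to 6254 in WT, 3326 to 4776 in p27-/- and 4259 to 4816 in p27-/-;Sox2+/-. Cyp2f2 was the highest of the 8 in every sample (log2 means 11.73, 11.04 and 11.27), so the sums depend most on it. The mean of centred log2 values, where each gene counts alike, was 0.075 to 0.298, -0.346 to -0.032 and -0.126 to 0.007. Of the 7 tested, 7 had a difference below 0 in p27-/-. In p27-/-;Sox2+/- 5 were below 0 and 2 above. Of these genes, 2 passed as lower in p27-/- and 1 in p27-/-;Sox2+/-. The 10 endothelial markers summed to 520 to 688 in WT, 385 to 494 in p27-/- and 419 to 556 in p27-/-;Sox2+/-, with 2 of 9 tested lower in each mutant. Fibroblast and mural cell markers ranged from 3795 to 5265, from 2414 to 4401 and from 2562 to 4158, with 2 of 10 passing as lower in p27-/- and 0 in p27-/-;Sox2+/-. Among 9 tested proliferation markers, 8 passed as higher in p27-/- and 2 in p27-/-;Sox2+/-. Over all tested genes, 4.62% passed as lower and 3.16% as higher in p27-/-, and 1.88% and 0.828% in p27-/-;Sox2+/-. The stem cell, endothelial, melanotroph and anterior lobe lists each had genes called lower in each mutant. The last 2 lists had 1 of 7 tested lower in each, and 1 melanotroph marker passed as higher in p27-/-. The fibroblast and mural list and the posterior lobe list had calls in p27-/- alone, and the proliferation list was higher. All 12 posterior lobe markers had a difference below 0 in p27-/-, with a median of -0.56. Beyond the fits with the posterior lobe marker covariate, the part of these lists in the results for Fgf1 and Fgfr1 was not tested.

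Spry1 lies near Fgf2 on mouse chromosome 3, which also carries Sox2. In GRCm38 coordinates, Fgf2 spans chr3:37348477-37410106 and Spry1 spans chr3:37639947-37644599, both on the + strand and 229.8 kb apart, with Sox2 2.7 Mb from the Fgf2 start. Of the 11 tested genes around them, 2 passed in p27-/- against WT, both higher, where 7.78% of all tested genes passed and 3.16% passed as higher. By limma 0 of the 11 passed in p27-/-;Sox2+/- against WT, where 2.71% of all tested genes passed, and 2 had an unadjusted p below 0.05, against 17.8% of all tested genes. The 11 include Sox2, which is itself targeted in p27-/-;Sox2+/-, so the counts for that genotype are not of untargeted neighbours alone. Ccna2, the S phase cyclin A2, rose by 0.94 in p27-/- (SE 0.19, adjusted p = 0.0107). Its call was lost in 3 of 21 other settings. Without p27-/- replicate 3 it was 0.74 higher (adjusted p = 0.0669). With the posterior lobe covariate it was 0.88 higher (adjusted p = 0.0514), and among the samples of high Xist 0.97 higher (adjusted p = 0.151).

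Nudt6 is transcribed antisense to Fgf2, and its gene bounds overlap those of Fgf2 by 5125 bases. It read 4.47, 4.46, 4.54 and 4.46 in WT, 4.73, 4.90 and 4.93 in p27-/-, and 4.51, 4.69 and 4.65 in p27-/-;Sox2+/-. Nudt6 was thus higher in all p27-/- samples than in any other sample, the reverse of Fgf2. The difference in p27-/- was 0.37 (SE 0.10, adjusted p = 0.033), and the call was lost in 7 of 20 other settings. These were the fits without WT replicate 4 or p27-/- replicate 2 or 3 (adjusted p up to 0.135), p27-/- and WT alone (0.0609), the replicate block (0.0898), the posterior lobe covariate (0.0935) and high Xist only (0.285). Reads were counted without strand, so reads of the shared bases cannot be told apart between the 2 genes.

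**Figure D4:**
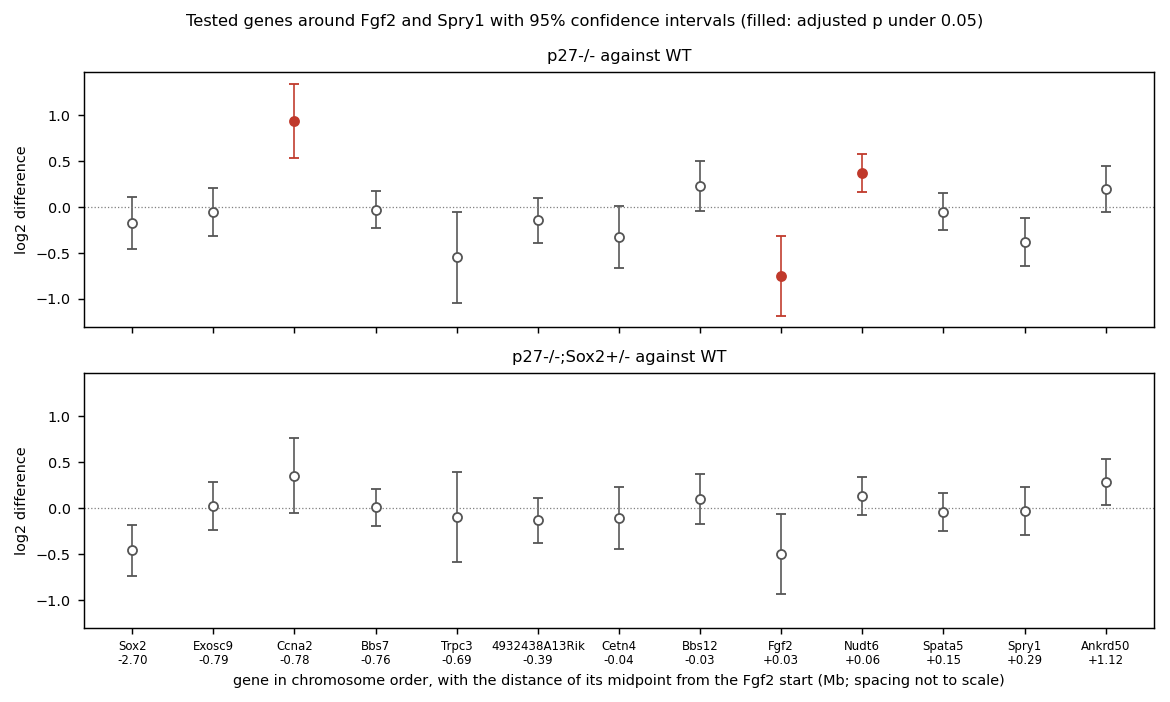
Log2 difference with its 95% confidence interval for the tested genes around Fgf2 and Spry1, in chromosome order with their distance from the Fgf2 start; filled points passed an adjusted p of 0.05. In p27-/- Ccna2 and Nudt6 are higher and Fgf2 lower than in WT, and no gene passes in p27-/-;Sox2+/-.

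The promoter sequences of Spry1 and Dusp6 are given because these were the feedback genes lower in every p27-/- sample than in every WT sample, although neither passed the test. Each is the 250 bases before the transcription start in RefSeq (GRCm38.p6, + strand), chr3:37639697-37639946 for Spry1 and chr10:99262981-99263230 for Dusp6, and capitals mark a GC box.
Spry1: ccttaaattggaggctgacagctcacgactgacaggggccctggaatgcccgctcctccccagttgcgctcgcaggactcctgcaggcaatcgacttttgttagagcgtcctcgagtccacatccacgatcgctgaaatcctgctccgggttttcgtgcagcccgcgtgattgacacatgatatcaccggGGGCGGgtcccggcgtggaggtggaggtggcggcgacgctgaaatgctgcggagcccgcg
Dusp6: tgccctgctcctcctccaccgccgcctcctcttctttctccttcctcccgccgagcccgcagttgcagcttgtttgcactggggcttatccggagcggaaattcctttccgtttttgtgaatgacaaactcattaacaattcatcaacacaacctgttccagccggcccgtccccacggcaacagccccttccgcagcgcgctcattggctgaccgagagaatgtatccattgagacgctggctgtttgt
The 3 motifs were searched on both strands in the 8 windows of the 7 members with an entry among RefSeq promoters. The GC box GGGCGG was found in 5 of the 8 windows, of Fgf2, Fgfr3, Fgfr4 and Spry1, and in 32.7% of all 32851 promoter windows. The SOX core ACAATG was found in 0 of 8 windows, against 10.7% of all promoters. The Capicua octamer TGAATGAA, known from genes that ERK relieves of repression, was found in 0 of 8 against 1.08%.

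Other parts of the FGF pathway were counted by list. Of 16 further secreted FGFs, 10 were found in the table, and of these Fgf9 and Fgf10 were high enough to be tested. Fgf10, the ligand for Fgfr2 in the developing pituitary, read 7.92, 6.34, 7.04 and 7.52 in WT, 6.14, 5.54 and 6.43 in p27-/-, and 6.0, 5.67 and 7.34 in p27-/-;Sox2+/-. The difference in p27-/- was -1.17 (SE 0.39, adjusted p = 0.0831). WT replicate 2, its lowest WT sample, had the lowest posterior lobe marker level of WT (3049), and p27-/-;Sox2+/- replicate 3, its highest mutant sample, the highest of the mutants (7187). WT replicate 1, its highest sample, had a level of 5657, below those of WT replicates 3 and 4 (6510 and 8075). The part of these markers in the result was not tested. Fgf9 was 0.36 higher in p27-/- (adjusted p = 0.117), with all 3 samples above WT. The 4 intracellular FGF homologous factors, which bind sodium channels, had 0 calls in each comparison by limma, with 1, 3 and 1 at an unadjusted p below 0.05. Over all tested genes, 7.78%, 2.71% and 0.145% were called, and 24.1%, 17.8% and 6.65% had an unadjusted p below 0.05.

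Co-receptors and carriers of FGFs had 3 of 19 tested genes lower and 0 higher in p27-/- against WT, with a median of -0.26. Over all tested genes 4.62% passed as lower and 3.16% as higher in this comparison, and the median was 0.01. Flrt1, a transmembrane protein that binds FGF receptors, read 10.04, 9.77, 10.49 and 10.36 in WT, 9.60, 9.57 and 9.51 in p27-/-, and 10.38, 10.05 and 9.90 in p27-/-;Sox2+/-. It fell by 0.61 in p27-/- (adjusted p = 0.03) and differed from WT by -0.06 in p27-/-;Sox2+/- (95% confidence interval -0.38 to 0.27). The difference between the mutants was 0.55 and did not pass (adjusted p = 0.347). WT replicates 3 and 4 were the highest WT samples of Flrt1, as for Fgf2. Among the samples of high Xist its difference in p27-/- was -0.35 (adjusted p = 0.29). Fgfrl1, a receptor without a kinase domain, fell by 0.41 and 0.56 in the 2 mutants against WT (adjusted p = 0.0437 and 0.0205), and the heparan sulfate carrier Sdc1 by 0.47 and 0.56 (adjusted p = 0.0385 and 0.0327).

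Flrt3, a relative of Flrt1 that promotes FGF signalling in embryos, was the only gene of these lists that passed between the mutants. Its log2 values were 8.68, 8.61, 8.72 and 8.57 in WT, 8.86, 8.50 and 8.49 in p27-/-, and 9.14, 9.34 and 9.40 in p27-/-;Sox2+/-. The p27-/-;Sox2+/- samples stood above all others, which overlapped each other. Flrt3 rose by 0.65 against WT (SE 0.11, adjusted p = 0.00729) and by 0.68 against p27-/- (SE 0.12, adjusted p = 0.0435). The latter call was lost in 10 of 21 other settings, with values from 0.61 to 0.75 there. They were 6 fits without 1 sample, all but those without WT replicate 1, 2 or 3 or p27-/- replicate 1 (adjusted p up to 0.37), and those with no filter (0.0935), no trend (0.069), the replicate block (0.153) and high Xist only (0.287).

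Among 13 enzymes of heparan sulfate synthesis and trimming, 2 were lower and 0 higher in p27-/- against WT, where 4.62% of all tested genes passed as lower. Sulf1, a sulfatase that removes the 6-O-sulfates needed for FGF2 signalling, read 10.41, 10.27, 11.01 and 10.83 in WT, 10.07, 9.71 and 9.62 in p27-/-, and 10.33, 10.28 and 10.23 in p27-/-;Sox2+/-. It was below all WT samples in p27-/-, and the p27-/-;Sox2+/- samples overlapped the lower WT samples. It fell by 0.83 in p27-/- (SE 0.16, adjusted p = 0.00824; adjusted p = 0.0524 without p27-/- replicate 3). WT replicates 3 and 4 were its highest samples, as for Fgf2, and among the samples of high Xist the difference was -0.49 (adjusted p = 0.221). Ext1, which extends the chain, fell by 0.38 and 0.48 in the mutants (adjusted p = 0.0469 and 0.0305).

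Of 30 adaptors and kinases between receptor and ERK, 1 passed in p27-/- against WT, where 7.78% of all tested genes did, so the list had no more calls than tested genes in general. The gene was Gab2, a docking protein, which fell by 0.47 (adjusted p = 0.0198). Of 14 other feedback genes 0 passed in any comparison by limma, and 0, 2 and 2 had an unadjusted p below 0.05. The shares of all tested genes with such a p were 24.1%, 17.8% and 6.65%. Of 18 ERK-responsive genes, 1 was higher and 1 lower in both mutants against WT, where 7.78% and 2.71% of all tested genes passed. The ETS factor gene Etv1 rose by 0.36 and 0.38 (adjusted p = 0.0217 and 0.031). Ccnd1, encoding cyclin D1, read 9.40, 9.98, 9.35 and 9.77 in WT, 7.64, 8.01 and 7.43 in p27-/-, and 8.46, 8.02 and 8.12 in p27-/-;Sox2+/-. It fell by 1.93 and 1.43 (adjusted p = 5.326e-05 and 0.00118), with no overlap with WT and in all 21 other settings. The medians of the ERK-responsive list, 0.08 and -0.02, were close to those of all tested genes, 0.01 and 0.01.

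Many of these list calls were near the threshold. In p27-/- against WT, the calls of Fgfrl1, Sdc1, Flrt1, Ext1, Gab2 and Etv1 were lost in 16 of 20, and in 14, 9, 16, 6 and 8 of 21 other settings, with adjusted p up to 0.445. Each of the 6 calls was lost without WT replicate 4 and without p27-/- replicate 2, and without other samples for each gene, with adjusted p up to 0.192 over all fits without 1 sample. In p27-/-;Sox2+/- against WT, Fgfrl1, Sdc1, Ext1 and Etv1 lost the call in 6 of 20, and in 10, 8 and 10 of 21, and Flrt3 in 2 of 21, of which 1 was the fit without p27-/-;Sox2+/- replicate 2 (adjusted p = 0.0544). No called difference changed its sign in any setting.

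**Figure D5:**
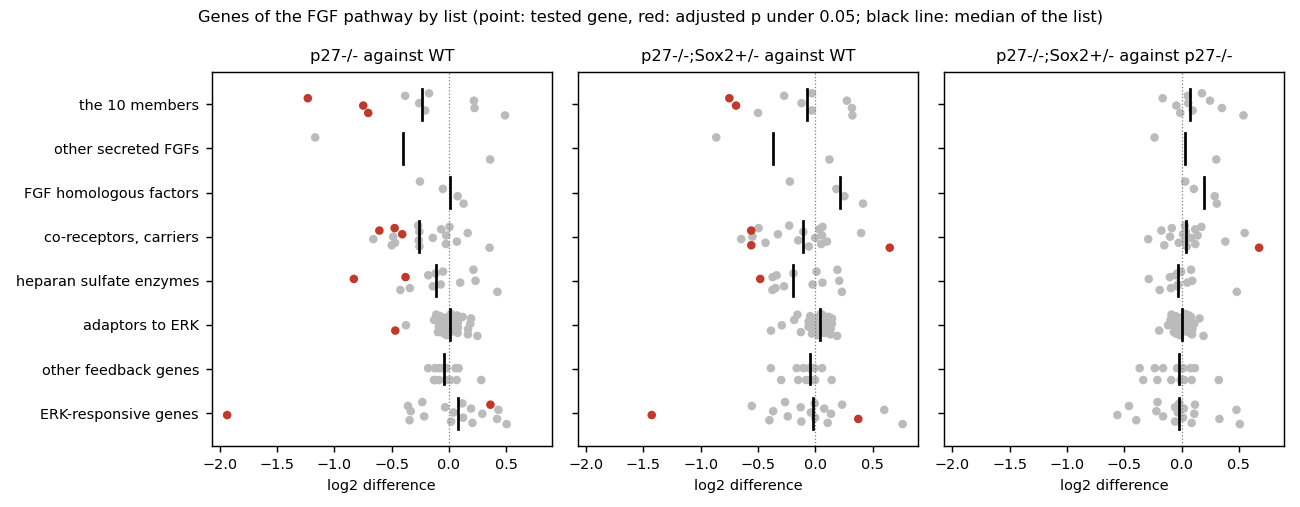
Log2 difference (horizontal axis) of each tested gene of the FGF pathway by list in the 3 comparisons, with genes past an adjusted p of 0.05 in red and the median of each list as a black line. Red points are mostly below 0 in both comparisons against WT, and between the mutants Flrt3 is the 1 red point, at 0.68. Calls over all tested genes were also more often lower, 4.62% against 3.16% higher in p27-/- and 1.88% against 0.828% in p27-/-;Sox2+/-.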

How the data were processed

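Bulk RNA of dissected mouse IL was sequenced by the authors, 1 library per sample. Per the labels and the study's methods, cDNA was made with the Ovation RNA-seq System V2, reads were aligned with STAR (2.5.2a) to GRCm38, counted per gene with RSEM (1.3.30) without regard to strand and normalized with DESeq2 (1.18.1). The deposited values are log2 normalized counts for 29527 genes, between -1.89 and 21.5. The transformation is not given in the sources used here, and low genes are drawn together, so differences of low genes are understated. The depth per sample is unknown, and the number of samples limits the precision. The study tested counts, which were not analysed here.

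Genes whose log2 values averaged 3.32 or more over all samples, the log2 of 10 linear units, entered the test. It was made with limma (3.58.1, R 4.3.3), with lmFit, contrasts and eBayes with a trend, in 1 fit of all 10 samples. The p-values were Benjamini-Hochberg adjusted over 17268 genes with a threshold of 0.05. The fit was tested on simulated data. Each limma p-value sets a difference of genotype means against the spread of these samples within genotypes. A group not overlapping another has all its samples on 1 side. Fold changes are ratios on the scale of the deposited log2 values. Levels per kb divide the linear value by the union of exons, for genes whose span in the annotation was within 5% of that in RefSeq. Exact permutation tests used scipy (1.17.1). Tables were handled with pandas 2.3.3 and numpy 2.4.6 in Python 3.11.15, and figures were drawn with matplotlib 3.10.9. Symbols were matched to Ensembl IDs for 22709 genes, and positions and promoters are those of RefSeq.

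All 10 members were named, with Cdkn1b, Sox2 and Nudt6, the genes of each pathway list that passed (at most 5 per comparison, by p) and the 5 genes most like Fgf2. Fgf9, Fgf10 and Ddx3y were named after their values were seen. The members and lists were chosen with earlier results of these data known. Nothing in the labels ties samples of 1 number together across genotypes, and their deviations correlated at -0.238 to 0.182, so replicate numbers were not used as pairs.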

Additional observations from a re-analysis of the deposited data

Results flagged for a closer look

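Fgfr3 in WT replicate 4, at 4.72, stood apart from the other WT samples, at 4.23 to 4.31. The gap was 0.831 of the range of the 4 WT samples. Of 19 measures examined in WT (the 10 FGF genes, Nudt6 and the levels of 8 marker lists), 1 stood apart in this way, where chance alone gives 0.95. Without that sample, Fgfr3 was 0.10 lower in p27-/- and 0.08 higher in p27-/-;Sox2+/- than in WT.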

How the results depend on the processing

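In p27-/- against WT, the number of FGF genes past the threshold lay between 2 and 4 without 1 sample, and it was 1 (Fgf1) among the samples of high Xist, a setting chosen after seeing the data, against 3 in all samples. Over all 17268 tested genes, 145 to 725 were called higher and 258 to 984 lower without 1 sample. Among the samples of high Xist, 33 were called higher and 33 lower, against 545 and 798 in all samples. Against WT, p27-/-;Sox2+/- gave a count of FGF genes that lay between 0 and 2 without 1 sample (0 without p27-/-;Sox2+/- replicate 2, 1 without replicate 1), was 1 (Fgfr1) with the posterior lobe marker level as a covariate and 0 among the samples of high Xist, where 2 samples per genotype remain. Over all tested genes, 143 were called higher and 325 lower in this comparison with all samples. The numbers were 28 and 52 without p27-/-;Sox2+/- replicate 2, and 59 and 134 without replicate 1. They were 52 and 107 with the covariate, and 3 and 3 among the samples of high Xist. Between the mutants the count of FGF genes was 0 without any 1 sample and 1 (Fgf1, adjusted p = 0.0277) with array weights. With array weights, 147 of all tested genes were called higher and 136 lower between the mutants, against 14 and 11 in the main fit. With a replicate block, in which WT replicate 4 has no partner and drops out, the counts of FGF genes were 2, 2 and 0, and Fgf2 was the call lost (-0.59, adjusted p = 0.114). Over all tested genes, the replicate block gave 202 higher and 393 lower calls in p27-/- against WT. The other counts of FGF genes stayed within 1.5 times the main count. Fgf2 also lost its call with no filter (adjusted p = 0.0659), with p27-/- and WT alone (adjusted p = 0.0731) and with quantile normalization (adjusted p = 0.0524). The cause was not tested.

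Of 1111 values of single genes under the alternatives, 921 kept direction and side of the threshold, 164 lost the call, 3 gained it and 23 changed sign, none of these past the threshold. Fgfr3 in p27-/- against WT was 0.0215 with the posterior lobe covariate. For p27-/-;Sox2+/- against WT, Fgfr3 was 0.0252, 0.0829, 0.191 and 0.2195 with quantile normalization, the replicate block, the posterior lobe covariate and high Xist only, and Spry1 was 0.0011, 0.0395, 0.0443 and 0.134. Without 1 sample, Fgfr3 ranged from -0.2525 to 0.0873, Spry1 from -0.0912 to 0.0395 and Spry4 from -0.248 to 0.0629. Between the mutants without 1 sample, Fgfr1 ranged from -0.1145 to 0.0631, Fgfr3 from -0.0453 to 0.294, Spry2 from -0.0028 to 0.151, Spry4 from -0.0814 to 0.237 and Dusp6 from -0.131 to 0.0499. Exact permutation tests cannot pass the threshold in this design and gave no such value. Signal over background cannot be judged without counts.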
